A study of Mus musculus with 3 samples.

Results

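Notch3 and Nrarp were the 2 genes of the Notch pathway described here, out of 125 genes (the 125 targets with at least 1 molecule) that a custom primer panel detected in mouse bone marrow (BM). They were chosen by symbol, with earlier results of these data known, and both were detected in all 3 libraries. Each library was made by targeted single-cell RNA sequencing, in which single cells are caught in microwells, each transcript is tagged with a unique molecular identifier, and only the transcripts of the panel are amplified.

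One library held embryonic vessel cells, taken from E18.5 marrow by a sort for endothelial cells (ECs) and labelled E18.5 EC. The library labelled E18.5 BM cells held embryonic marrow of that stage, depleted of mature blood cells with antibodies to blood lineages. The library labelled Adult BM cells held adult marrow that was likewise depleted of mature blood cells with lineage antibodies, not stated to be the same ones. They are called the endothelial sort, embryonic marrow and adult marrow here. All were labelled as wild-type C57/B6 mice, with no treatment given in the labels, the age of the adults was not in the labels, and several animals were pooled into each library. The endothelial sort was given as CD31 with endomucin in 1 place and as CD31 alone in another, and further depletion steps described for other adult libraries were not stated for this one. With 1 library per group no test between groups was possible, so there are no p-values, and each range in parentheses after a value is its 95% interval, which covers counting error alone.

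Notch receptors are cut when a neighbouring cell presents a Delta-like or Jagged ligand, and the freed inner part enters the nucleus and switches on target genes. Notch3 is the receptor best known from vascular smooth muscle cells and pericytes, the mural cells that wrap vessels, where it is needed for their maturation. Nrarp is a small ankyrin-repeat protein that Notch induces and that dampens Notch signalling in return. In sprouting endothelium it also stabilises Lef1, a transcription factor of the Wnt pathway, and so ties the pathways together.

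Notch3 (ENSMUSG00000038146.8) lies on the minus strand of chromosome 17, from 32120820 to 32166852 in the mouse build GRCm38, with 33 exons in the transcript that was targeted. Nrarp (ENSMUSG00000078202.3) lies on the plus strand of chromosome 2, from 25180758 to 25183339, in 1 exon. Each was read by 1 amplicon that the panel places at the 3′ end of the transcript, in the last exon. A level is given below as molecules of the gene per 10000 panel molecules, summed over the cells of a set. It compares 1 gene between sets of cells, not the genes with each other, and it falls where other targets of the panel are very abundant in a set.

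After 5, 40 and 9 barcodes with few molecules had been left out, the endothelial sort kept 4038 cells, embryonic marrow 12844 and adult marrow 7939, with medians of 83, 97 and 242 molecules per cell. The libraries shared between 38 and 113 barcodes, at most 1.43% of a library. Over whole libraries Notch3 had 481 molecules in the endothelial sort, 4416 in embryonic marrow and 20927 in adult marrow, and Nrarp had 4296, 2024 and 3420. Notch3 was therefore scarce in the endothelial sort and common in adult marrow, with levels of 11.1, 24.0 and 33.2, while Nrarp went the other way, with levels of 99.3, 11.02 and 5.43. Notch3 was seen in 2.20%, 8.37% and 38.8% of cells and Nrarp in 50%, 10.7% and 18.6%. Such totals mix all cells of a library, and all further values are given by cell set.

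Cells were set apart by marker genes. A cell passed a gate with at least 2 molecules of the marker that also made up at least 1% of its molecules. Cells past the Rgs5 gate (Rgs5 encodes a G-protein regulator typical of mural cells) and past neither the Pecam1 nor the Ptprc gate formed the Rgs5 set. Pecam1 cells without Ptprc or Rgs5 were divided by the highest of Gja4 (a connexin of arterial ECs), Apln (a peptide of angiogenic capillary ECs) and Stab1 (a scavenger receptor of sinusoidal ECs). Ptprc cells (Ptprc encodes the pan-blood antigen CD45) were divided by whether they held a molecule of Hlf, a transcription factor of haematopoietic stem cells. The remaining cells were assigned by the lists Lepr and Adipoq (reticular), Postn, Aspn and Ccn3 (fibroblast-like), Bglap genes (osteoblast-like) or Col2a1, Acan and Col10a1 (chondrocyte-like).

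The Rgs5 set held 11 cells of the endothelial sort, 136 of embryonic marrow and 231 of adult marrow. Of 6 mural markers 3 were detected, Rgs5, Acta2 and Tagln, and their summed level in the Rgs5 set was 4194, 5717 and 1593. In the adult library 74 of the 231 cells carried Prg4, the lubricin gene of joint surface cells, at 10% or more of their molecules. These 74 cells had a summed mural level of 334, against 4088 in the other 157, so the label mural did not describe them and Rgs5 values in adult marrow are given with and without them. In embryonic marrow no cell of the Rgs5 set was Prg4-rich. Adipoq was seen in 0.110% of adult reticular cells, and that set is therefore a Lepr set.

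Of the sets of more than 4 cells, the Rgs5 set had the highest Notch3 in the embryonic libraries, and in adult marrow it stood above the Lepr, endothelial and blood sets. The Notch3 level was 1203 (1074 to 1344, 11 cells) in the endothelial sort, 475 (456 to 494, 136 cells) in embryonic marrow and 174 (168 to 179, 231 cells) in adult marrow, and in the adult cells without Prg4 it was 516 (499 to 533, 157 cells). Rgs5 cells were rich in the receptor in embryo and adult alike, while the 74 Prg4-rich cells had a level of 0.828 (0.413 to 1.48). The other 157 adult cells also carried the reticular list (Lepr, Adipoq, Cxcl12 and Cp) at 1965, nearly all of it Cxcl12 and with Adipoq at 0, where embryonic Rgs5 cells had 30.9. The part of those genes in the adult Notch3 level was not tested.

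A further 22, 13 and 235 cells passed the Rgs5 gate together with the Pecam1 or the Ptprc gate and were kept out of the Rgs5 set. Their Notch3 level was 115 (81.7 to 157), 321 (258 to 393) and 330.0 (319 to 341). In adult marrow these 235 cells had the mural list at 4291, the endothelial list at 532 and the blood list at 269, and no doublet caller was run, so single and joined cells were not told apart among them.

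The receptor was also found in most Rgs5 cells, not in a few. A Notch3 molecule was present in 11 of 11 Rgs5 cells of the endothelial sort, in 124 of 136 of embryonic marrow (91.2%) and in 148 of the 157 adult cells without Prg4 (94.3%), at median depths of 208, 313.5 and 349 molecules per cell. When each cell was thinned to 50 molecules the shares were 100%, 80.0% and 80.1%. The largest number of Notch3 molecules in a single Rgs5 cell was 51 in the endothelial sort, 82 in embryonic marrow and 143 in adult marrow. The 11 cells of the endothelial sort, 0.272% of that library, held 65.5% of all its Notch3 molecules, and the 136 cells of embryonic marrow held 53.5%.

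**Figure D1:**
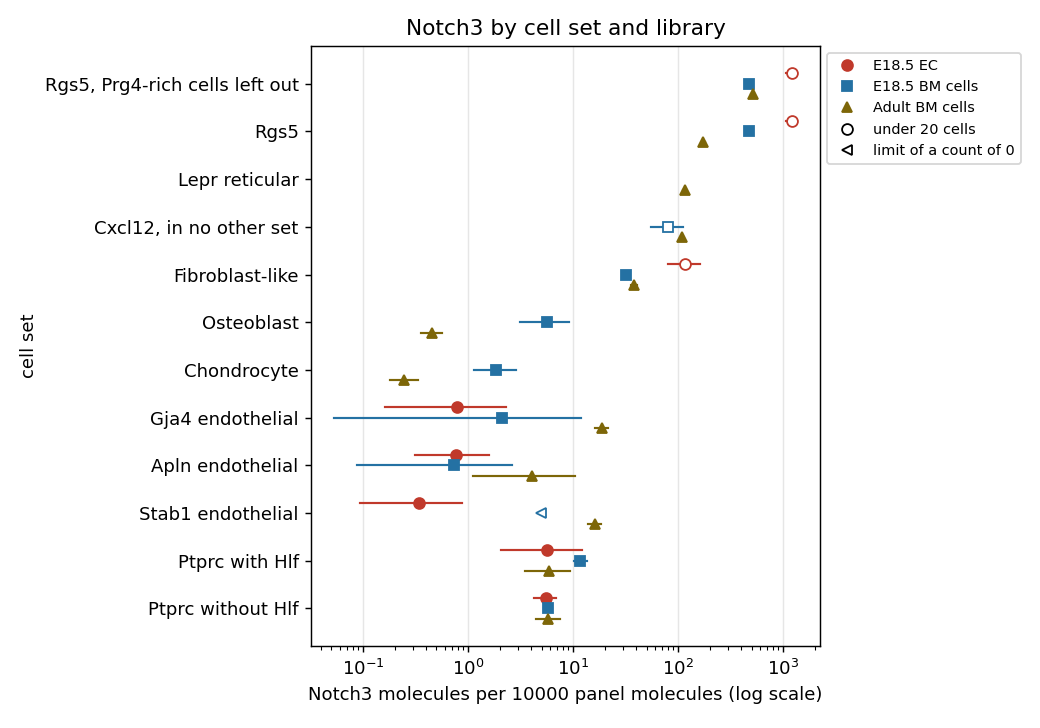
Level of Notch3 (molecules per 10000 panel molecules, log axis) in the cell sets named on the axis, with colour and symbol for the library, bars for 95% counting intervals, open symbols for sets under 20 cells and a left-pointing triangle for the limit that a count of 0 allows. Sets under 10 cells and the cells past the Rgs5 and another gate are not drawn. Rgs5 cells stood at 475 in embryonic marrow and at 516 in adult marrow without Prg4-rich cells, adult Lepr cells stood at 115, and the Gja4, Apln and Stab1 endothelial sets were at or below 18.7.

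Endothelial cells held very little of the receptor. In the 3 endothelial sets together Notch3 had a level of 0.572 (0.313 to 0.960, 14 molecules in 2663 cells) in the endothelial sort, 0.785 (0.162 to 2.29, 3 molecules in 356 cells) in embryonic marrow and 16.7 (15 to 18.4, 372 molecules in 1446 cells) in adult marrow. The Rgs5 to endothelial ratio was 2103 (1235 to 3891) in the endothelial sort, 605 (207 to 2936) in embryonic marrow and 10.4 (9.36 to 11.6) in adult marrow. Of the targets compared, 17.9%, 31.6% and 16.8% were at least 2-fold higher in Rgs5 cells and 67.9%, 49.4% and 60.0% at least 2-fold lower, and Notch3 ranked 2 of 84, 8 of 79 and 4 of 95 by this ratio.

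The size of these ratios depended on how the molecules were corrected. The values above use counts after the pipeline's distribution-based error correction (DBEC), which drops molecules with few reads and had kept 16.0%, 32.5% and 25.1% of the raw Notch3 molecules. With the milder recursive correction (RSEC) the ratios were 277, 68.3 and 5.25. In the adult library the endothelial value also depended on which cells entered it. The 308 adult endothelial cells with a molecule of Rgs5, Acta2, Tagln, Lepr or Adipoq had a Notch3 level of 46.4 (41.6 to 51.7), and the other 1138 had 2.51 (1.78 to 3.44). The 308 cells also carried the mural list at 820 and the reticular list at 1547 per 10000 molecules. Set against the 1138 cells, the adult Rgs5 ratio was 69.2.

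Outside the Rgs5 sets, Notch3 in adult marrow was also high in Lepr reticular cells, the stromal cells that supply Cxcl12 and stem cell factor to stem cells, and in cells with Cxcl12. The level in Lepr cells was 115 (112 to 119, 909 cells), and 831 of the 909 (91.4%) had a molecule at a median depth of 367. At a depth of 50 molecules this share was 43.3%, against 80.1% in adult Rgs5 cells without Prg4. A further 1727 adult cells past a gate on Cxcl12 but in no other set had a level of 108 (106 to 110). They held 39.2% of all adult Notch3 molecules and the Lepr set 19.9%. Embryonic marrow had 4 Lepr cells and 12 of the Cxcl12 cells, too few to set beside them.

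Adult Rgs5 cells and Lepr cells differed by 1.51-fold (1.44 to 1.58) with all Rgs5 cells and by 4.48-fold (4.28 to 4.68) without the Prg4-rich ones. In the first of these comparisons 27.4% of 95 targets were at least 2-fold higher in Rgs5 cells and 40% at least 2-fold lower, and Notch3 was not among them. With all Rgs5 cells the order turned under some settings. The ratio was 0.755 when the most abundant targets were left out of the scale, 0.542 with a gate of 1 molecule and 0.870 with clusters in place of gates. Clustering left out both members, Hey1 and the cell cycle targets Mki67, Top2a, Cdk1 and Ccne1. It set 72 cells of the Rgs5 set in a cluster of 281 led by Prg4, Col22a1 and Cdh13, with Notch3 at 0.880 (0.651 to 1.16). It set 95 in a cluster of 311 led by Acta2, Rgs5 and Tagln, with a level of 434 (424 to 445). The adult clusters led by Lepr and Cxcl12 had levels of 114 (112 to 117, 1375 cells) and 115 (112 to 119, 915 cells).

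Fibroblast-like cells, which carry matrix genes such as Postn, had intermediate Notch3. Their level was 31.9 (29.9 to 34.1, 1098 cells) in embryonic marrow and 38.2 (35.6 to 40.9, 413 cells) in adult marrow, and 29.3% and 26.6% of them had a molecule. The adult set was uneven, since 287 of its 413 cells lay in a cluster of 310 led by Ccn3, Aspn and S100a4 with a level of 11.9 (139 molecules), and the set held 796 molecules in all. The Rgs5 set of embryonic marrow was 14.9-fold above them (13.8 to 16.1), where 12.0% of 100 targets were at least 2-fold higher in Rgs5 cells and 46.0% at least 2-fold lower. Osteoblast-like and chondrocyte-like cells were low, at 5.6 (3.13 to 9.24) and 1.85 (1.13 to 2.86) in embryonic marrow and at 0.452 (0.359 to 0.561) and 0.248 (0.180 to 0.332) in adult marrow. The adult values are divided by the very large numbers of Bglap and collagen molecules in these cells, whose median depths were 5572.5 and 4107.

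Blood cells held a low and similar level of the receptor in all libraries. In Ptprc cells it was 5.49 (4.33 to 6.86, 939 cells) in the endothelial sort, 6.69 (6.20 to 7.21, 8938 cells) in embryonic marrow and 5.85 (4.64 to 7.28, 1244 cells) in adult marrow. A molecule was seen in 5.01%, 5.39% and 4.26% of these cells, at median depths of 121, 90.5 and 93, against 0.488%, 0.843% and 6.02% of endothelial cells at 76, 87 and 116. In the embryonic libraries the blood level was above the endothelial one, by 9.60-fold (5.39 to 18.4) and 8.53-fold (2.91 to 41.5). In adult marrow the share in blood cells lay below that in all endothelial cells. It lay above the 2.90% of the 1138 endothelial cells without a molecule of Rgs5, Acta2, Tagln, Lepr or Adipoq, whose level was 2.51 (1.78 to 3.44). The adult order thus depended on the endothelial cells used, and no Notch3 expression is read from the adult blood value. In the endothelial sort the blood value was uneven. A cluster of 127 mostly Ptprc cells led by Fzd9, Hlf and Myc had 55 Notch3 molecules at a level of 35.2 (26.5 to 45.8). All 939 Ptprc cells of that library had 77.

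Among Ptprc cells, the ratio of Notch3 with Hlf to without had an interval above 1 in 1 library. In embryonic marrow the level was 11.7 (10.1 to 13.4, 1464 cells) with Hlf and 5.74 (5.24 to 6.26, 7474 cells) without, a ratio of 2.04 (1.72 to 2.41). In the endothelial sort the levels were 5.59 and 5.48 (ratio 1.02, 0.362 to 2.33) and in adult marrow 5.92 and 5.83 (ratio 1.02, 0.565 to 1.74). Those intervals contain 1, so no difference was detectable there at this depth. With 50 molecules per cell the shares of embryonic marrow with Notch3 were 4.53% with Hlf and 2.28% without. In that library the Notch3 level was 8.93 (7.01 to 11.2), 12.2 (8.61 to 16.8) and 15.6 (12.5 to 19.4) at 1, 2 and 3 or more Hlf molecules.

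Between the marrow libraries, Notch3 in Rgs5 cells was 2.74-fold higher in the embryo (2.59 to 2.88), where 47.1% of 87 targets were at least 2-fold higher in the embryo and 25.3% at least 2-fold lower. Without the Prg4-rich adult cells the ratio was 0.920 (0.873 to 0.970), so the direction between embryo and adult rested on these 74 cells. Stage and library cannot be told apart in this comparison, since each stage is 1 library. Rgs5 cells with Acta2 and Tagln, the contractile genes of smooth muscle, at 10% or more of their molecules had slightly more Notch3 than the others. The levels were 497 (476 to 519, 96 cells) against 374 (336 to 416, 40 cells) in embryonic marrow and 543 (512 to 575, 50 cells) against 503 (482 to 524, 107 cells) in adult cells without Prg4.

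Nrarp was scarce in stromal cells outside the Rgs5 set. Rgs5 cells had an Nrarp level of 61.1 (34.9 to 99.2, 16 molecules) in the endothelial sort, 29.3 (24.7 to 34.5) in embryonic marrow and 24.8 (21.1 to 28.8) in the adult cells without Prg4, or 8.70 (7.46 to 10.1) with them. Adult Lepr cells, which were rich in the receptor, had an Nrarp level of 0.416 (0.233 to 0.686), and 9 of 909 cells (0.990%) had a molecule. The ratio of adult Rgs5 cells without Prg4 to Lepr cells was 59.5 (35.1 to 109) for Nrarp and 4.48 for Notch3. In embryonic marrow the ratio of Rgs5 to fibroblast-like cells was 82.5 (43.6 to 176) for Nrarp and 14.9 for Notch3. Osteoblast-like and chondrocyte-like cells had levels between 0.0225 and 0.556, and the fibroblast-like cells 0.355 (0.170 to 0.653) in the embryo and 1.92 (1.37 to 2.61) in the adult.

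Among Rgs5 cells of both marrows the Nrarp level was higher in those with the contractile genes. In embryonic marrow its level was 33.7 (28.3 to 39.8) in cells with Acta2 and Tagln at 10% or more and 9.85 (4.50 to 18.7) in the others, a ratio of 3.42 (1.75 to 7.64). In adult cells without Prg4 it was 42.8 (34.6 to 52.3) and 16.0 (12.5 to 20.1), a ratio of 2.68 (1.95 to 3.69). In adult marrow the reticular list stood at 35.9 in the first of these sets and at 2906 in the second, and its part in the difference was not tested. The endothelial sort had 1 cell at 10% or more, with 0 Nrarp molecules, and its 16 molecules lay in the other 10 cells. Across the same division Notch3 differed by 1.33-fold (1.18 to 1.49) and 1.08-fold (1.01 to 1.16). Between embryo and adult, without Prg4-rich cells, Nrarp in Rgs5 cells differed by 1.18-fold (0.942 to 1.49), an interval that contains 1.

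Cells of the Rgs5 set with Nrarp nearly all held Notch3 as well. In embryonic marrow 58 of 136 cells had both, 66 had Notch3 only, 0 had Nrarp only (which allows a share of up to 2.21%) and 12 had neither. In adult cells without Prg4, 52 of 157 had both, 96 had Notch3 only, 1 had Nrarp only and 8 had neither. Notch3 was in most of these cells, so few cells were left in which Nrarp could have stood alone. In adult Lepr cells 8 of 909 had both and 823 had Notch3 only. Endothelial cells showed the reverse picture, with Nrarp only in 1597 of 2663 cells of the endothelial sort, in 193 of 356 of embryonic marrow and in 659 of 1446 adult cells, and both in 9, 2 and 45.

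**Figure D2:**
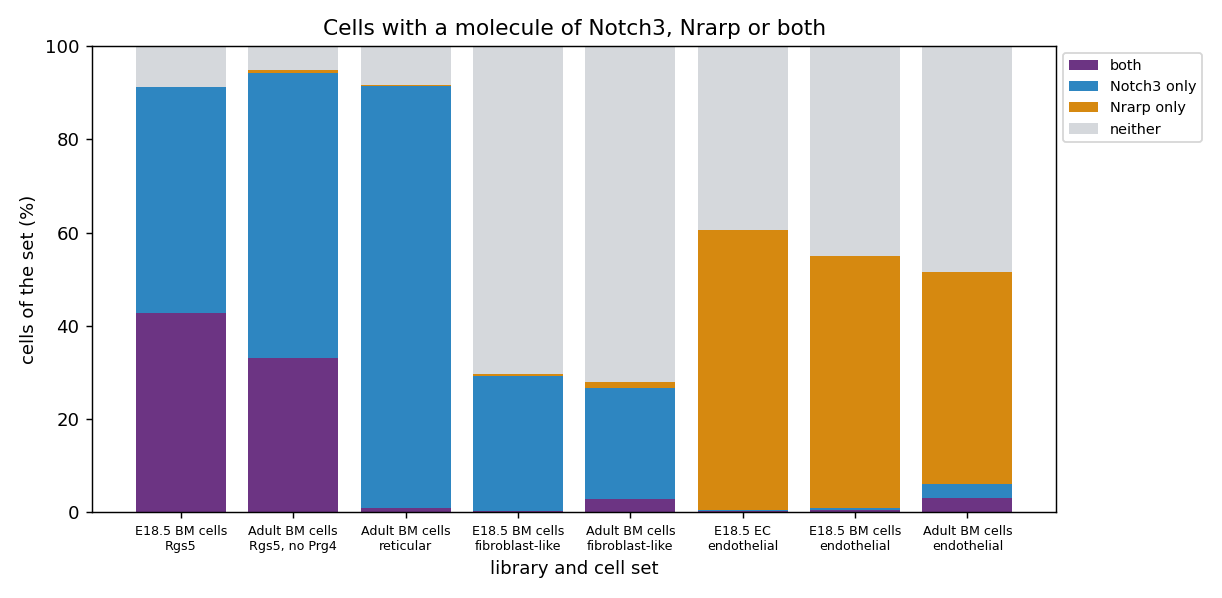
Share of cells (%) with at least 1 molecule of both genes, of Notch3 only, of Nrarp only or of neither, in 8 sets of cells, unthinned. Both genes were found together in 42.6% of embryonic Rgs5 cells and 33.1% of adult Rgs5 cells without Prg4, Notch3 alone in most Lepr cells, and Nrarp alone in 60.0% of the endothelial cells of the endothelial sort.

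Endothelial cells had the highest Nrarp of the embryonic libraries. In the 3 endothelial sets together the level was 147 (143 to 152, 2663 cells) in the endothelial sort, 108 (97.8 to 119, 356 cells) in embryonic marrow and 72.2 (68.8 to 75.9, 1446 cells) in adult marrow. A molecule was present in 60.3%, 54.8% and 48.7% of cells at median depths of 76, 87 and 116, and in 48.9%, 41.4% and 27.9% at 50 molecules per cell. In adult Lepr cells, which were deeper, the share was 0.990%, and 0.22% at 50 molecules.

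The endothelial level exceeded that of Ptprc cells by 6.69-fold (5.95 to 7.54) in the endothelial sort, 10.2-fold (9.12 to 11.5) in embryonic marrow and 1.58-fold (1.44 to 1.74) in adult marrow. Of the targets compared, 39.6%, 34.3% and 44.0% were at least 2-fold higher in endothelial cells and 29.7%, 38.2% and 28.0% at least 2-fold lower, and Nrarp passed this fold in the embryonic libraries but not in the adult one. In the endothelial sort the ratio was 3.24 with RSEC counts, and its Ptprc cells carried the endothelial markers Pecam1, Kdr and Vwf at 390 with Hlf and 408 without. In the 567 of its 939 Ptprc cells without a molecule of Kdr, Gja4, Apln or Stab1 the Nrarp level was 24.8 (21.5 to 28.5), against 22.0 (19.6 to 24.6) in all 939.

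Between endothelial sets Nrarp differed by less than 2-fold in every library. Apln cells had the highest value in each, at 172 (163 to 180, 952 cells) in the endothelial sort, 117 (104 to 130, 245 cells) in embryonic marrow and 83.8 (66.7 to 104, 72 cells) in adult marrow. Stab1 cells stood at 144 (137 to 151, 1427 cells), 94.1 (71.3 to 122, 71 cells) and 68.8 (64.2 to 73.6, 894 cells). The ratio of Apln to Stab1 cells was 1.196 (1.12 to 1.28), 1.24 (0.932 to 1.67) and 1.22 (0.959 to 1.53), so of these 3 intervals the one of the endothelial sort lay above 1. Of all targets, 10.4%, 10% and 13.3% were at least 2-fold higher in Apln cells and 13.0%, 28.3% and 33.3% at least 2-fold lower.

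Gja4 cells, the arterial set, stood below the Stab1 cells in the endothelial sort and level with them, within counting error, in both marrows. Their Nrarp level was 101 (91.5 to 112, 284 cells) in the endothelial sort, 76.0 (53.2 to 105, 40 cells) in embryonic marrow and 75.6 (70.1 to 81.4, 480 cells) in adult marrow. The ratio to Stab1 cells was 0.706 (0.631 to 0.790), 0.807 (0.516 to 1.25) and 1.10 (0.993 to 1.22), where 23.0%, 19.2% and 15.4% of targets were at least 2-fold higher in Gja4 cells and 31.1%, 50% and 39.6% at least 2-fold lower. Gja4 cells of the endothelial sort were deeper, with a median of 110 molecules against 68, and counted per cell in place of per panel molecule the ratio was 1.16. The ratio of Apln to Gja4 cells was 1.69 (1.51 to 1.90), 1.53 (1.09 to 2.23) and 1.11 (0.871 to 1.40).

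A further 165, 422 and 355 Pecam1 cells had no molecule of Gja4, Apln or Stab1, and 198, 20 and 39 had the highest of them tied. The cells with none had a lower Nrarp level than the 3 sets, at 81.9 (67.1 to 98.8) in the endothelial sort, 22.8 (18.3 to 28.1) in embryonic marrow and 36.2 (31.1 to 41.9) in adult marrow. Their blood markers Ptprc and Srgn stood at 2210, 2632 and 3719 and their endothelial list at 2513, 511 and 1371, so they are not called endothelial here. The tied cells had Nrarp at 144 (126 to 165), 68.3 (39.8 to 109) and 51.1 (31.2 to 78.9).

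**Figure D3:**
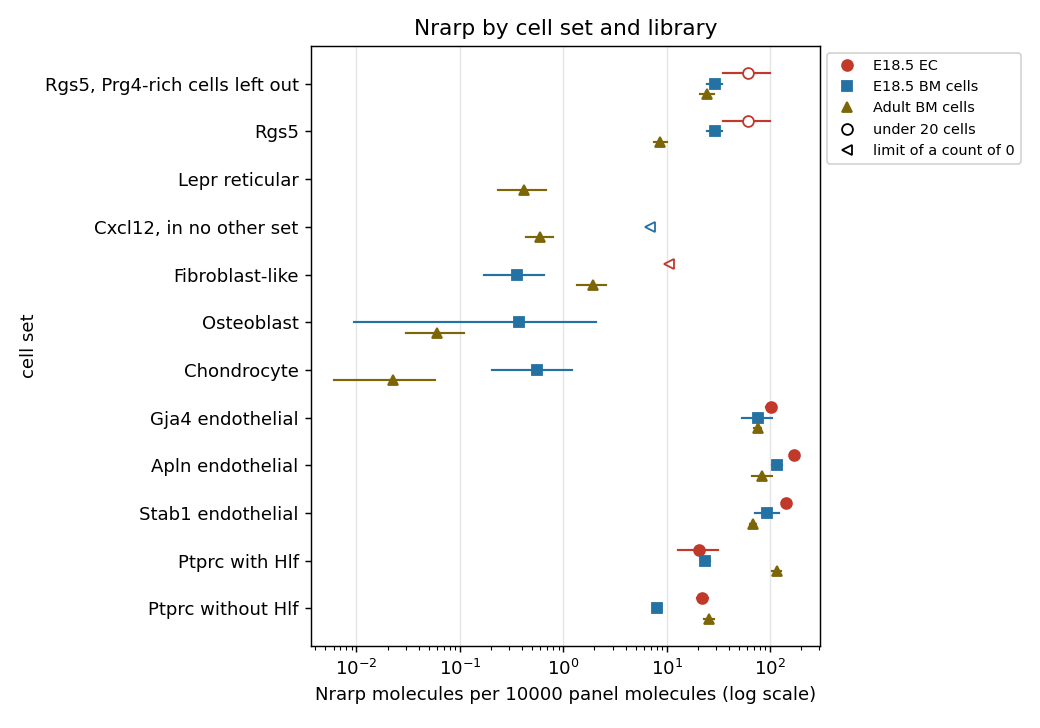
Level of Nrarp (molecules per 10000 panel molecules, log axis) in each cell set, with sets and symbols as in the plot of Notch3. The Gja4, Apln and Stab1 sets stood between 68.8 and 172, adult Ptprc cells with Hlf at 116, Rgs5 cells without Prg4 at 24.8 and above, and adult Lepr cells at 0.416.

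Per panel molecule, endothelial Nrarp was higher in the embryo. The ratio of the endothelial sort to adult marrow was 2.04 (1.92 to 2.16), where 24.7% of 97 targets were at least 2-fold higher in the endothelial sort and 41.2% at least 2-fold lower. Sorted and unsorted embryonic ECs differed too, with a ratio of the endothelial sort to embryonic marrow of 1.36 (1.23 to 1.51), and that of embryonic marrow to adult marrow was 1.495 (1.34 to 1.67). Counted per cell, the ratio of the endothelial sort to adult marrow was 1.21. Embryonic marrow held 413 Nrarp molecules in 356 endothelial cells and adult marrow 1614 in 1446, so per cell the marrows lay close together. Each stage and sort is 1 library, so stage, sort and library cannot be told apart.

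In blood cells of the marrow libraries Nrarp was higher with Hlf. Adult Ptprc cells had a level of 116 (104 to 128, 309 cells) with Hlf and 25.7 (22.7 to 28.9, 935 cells) without, a ratio of 4.51 (3.84 to 5.30). Embryonic marrow had 23.7 (21.4 to 26.1, 1464 cells) and 8.03 (7.45 to 8.65, 7474 cells), a ratio of 2.95 (2.60 to 3.34). In the endothelial sort the levels were 20.5 (12.8 to 31.0, 44 cells) and 22.2 (19.7 to 24.9, 895 cells), a ratio of 0.924 (0.570 to 1.43). The Hlf set was thus above the rest in both lineage-depleted marrows. The 44 cells of the endothelial sort, with 22 Nrarp molecules, showed no detectable difference. Median depths there were 245.5 with Hlf and 119 without, and 32 of the 44 cells held 1 Hlf molecule. Of all targets, 14.9% in adult marrow, 18.8% in embryonic marrow and 18.7% in the endothelial sort were at least 2-fold higher in the Hlf cells, 19.5%, 19.8% and 37.3% were at least 2-fold lower, and Nrarp ranked 5 of 87, 13 of 101 and 40 of 75.

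The share of cells with Nrarp told the same. A molecule was seen in 41.1% of adult Ptprc cells with Hlf and 15.9% without, at median depths of 80 and 98, and in 18.6% and 7.52% of embryonic marrow at 100 and 89. At 50 molecules per cell the shares were 30.3% and 8.74% in the adult and 10.4% and 4.20% in the embryo. Left to Ptprc cells without a molecule of Kdr, Gja4, Apln or Stab1, the levels were 109 (97.2 to 123) and 26.1 (23.0 to 29.5) in the adult and 24.0 (21.6 to 26.6) and 8.62 (7.96 to 9.32) in the embryo. The summed level of the endothelial markers Pecam1, Kdr and Vwf was 273 with Hlf and 354 without in the adult, and 125 and 107 in embryonic marrow. The part of these markers in the Nrarp difference was not tested.

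Per panel molecule, Nrarp also stepped with the number of Hlf molecules. In adult Ptprc cells with 0, 1, 2 and 3 or more Hlf molecules it was 25.7, 79.3 (66.4 to 93.9, 160 cells), 153 (125 to 186, 67 cells) and 170 (140 to 204, 82 cells). In embryonic marrow the steps were 8.03, 16.5 (13.9 to 19.5, 676 cells), 24.8 (19.5 to 31.1, 280 cells) and 34.1 (29.3 to 39.4, 508 cells). The intervals of neighbouring steps did not overlap up to 2 Hlf molecules in the adult, while in embryonic marrow those of 1 and 2 touched, and those of 2 and 3 or more overlapped in both marrows. Median depths along the steps were 98, 91, 80 and 71 molecules in the adult and 89, 107, 94 and 95 in embryonic marrow. In the adult, depth thus fell as Hlf rose, and the steps per panel molecule are not steps per cell. The endothelial sort had 6 cells at each of the upper steps, too few to read.

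**Figure D4:**
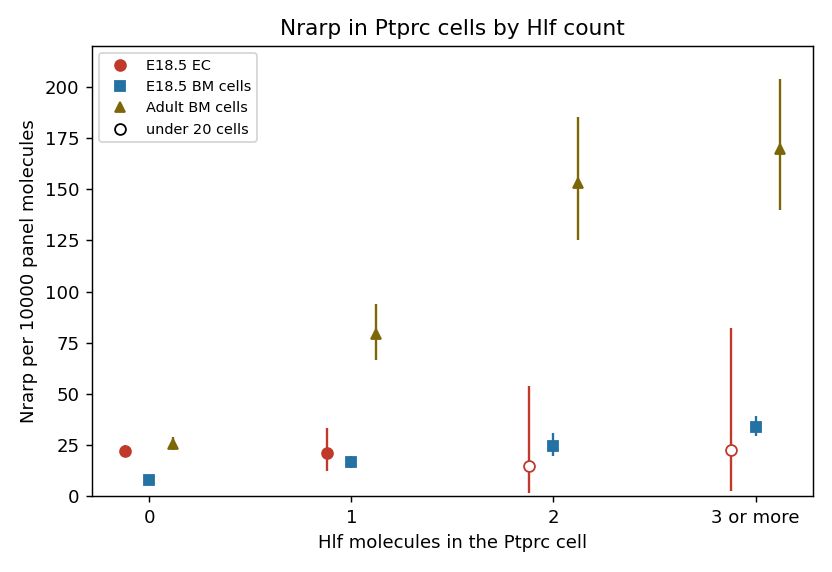
Level of Nrarp (molecules per 10000 panel molecules) in Ptprc cells by the number of Hlf molecules in the cell, with bars for 95% counting intervals and open symbols for under 20 cells. The adult level goes from 25.7 without Hlf to 170 at 3 or more molecules, the embryonic marrow from 8.03 to 34.1, and the endothelial sort stays between 14.9 and 22.8.

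Nrarp was also higher in Ptprc cells with Mecom, another transcription factor of stem cells, where Hlf was not seen. Adult Ptprc cells with Mecom but no Hlf had a level of 110 (84.0 to 142, 47 cells) against 21.1 (18.4 to 24.1, 888 cells) with neither, a ratio of 5.22 (3.85 to 6.98). In embryonic marrow the levels were 22.4 (15.3 to 31.6, 113 cells) and 7.79 (7.21 to 8.41, 7361 cells), a ratio of 2.87 (1.95 to 4.09). In the endothelial sort they were 76.9 (50.2 to 113, 17 cells) and 20.7 (18.3 to 23.4, 878 cells). Pecam1, Kdr and Vwf moved with this split. Their summed level was 611 with Mecom and 340 with neither in adult marrow, 293 and 104 in embryonic marrow and 1195 and 386 in the endothelial sort. Stab1 stood at 36.7 and 4.75 in adult marrow and 292.8 and 166.4 in the endothelial sort, but at 9.78 and 48.8 in embryonic marrow. Mecom was also a leading target of the adult cluster led by Sema3g and Gja4, mostly Gja4 cells, with Nrarp at 85.5. The part of endothelial markers in the Nrarp difference was not tested. Cells with both Mecom and Hlf had 182 (153 to 216, 84 cells) in the adult and 43.6 (37.1 to 51.0, 352 cells) in the embryo. Adult Ptprc cells with Hlf had 4.89-fold (4.22 to 5.66) more Nrarp than the embryonic ones, and those without Hlf 3.19-fold (2.77 to 3.68) more. In the adult library the Hlf cells exceeded the endothelial cells, by 1.60-fold (1.42 to 1.799).

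Of 20 other genes of the Notch pathway looked for (receptors, ligands, the Hes and Hey targets and regulators), 1 was detected, Hey1, a transcriptional repressor that Notch induces in arteries. Hey1 was highest in the arterial set, with levels in Gja4 cells of 328 (310 to 347) in the endothelial sort, 226 (185 to 273) in embryonic marrow and 113 (107 to 120) in adult marrow. Its ratio of Gja4 to Stab1 cells was 15.9 (13.8 to 18.3), 4.27 (2.85 to 6.56) and 10.3 (8.61 to 12.5), where that of Nrarp was 0.706, 0.807 and 1.10. In the Rgs5 set Hey1 was at 0 of 2618 molecules in the endothelial sort (which allows a level of up to 11.5), at 9.84 (7.28 to 13.0) in embryonic marrow and at 8.65 (6.57 to 11.2) in adult cells without Prg4.

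Within Gja4 cells, those with Hey1 had more Nrarp in adult marrow. Cells with Hey1 were deeper in every library. Medians with and without it were 181.5 and 125.5 molecules in adult marrow, 130 and 71 in the endothelial sort and 111 and 55 in embryonic marrow. Adult Gja4 cells with Hey1 had an Nrarp level of 84.1 (77.2 to 91.4, 308 cells) and those without 55.0 (46.5 to 64.6, 172 cells), a ratio of 1.53 (1.27 to 1.85). In the endothelial sort the levels were 99.9 (89.3 to 111, 218 cells) and 111 (84.4 to 144, 66 cells), a ratio of 0.898 (0.678 to 1.21). In embryonic marrow they were 64.7 (42.3 to 94.8, 29 cells) and 139 (66.6 to 255, 11 cells). In Ptprc cells of both marrows Hey1, like Nrarp, was higher with Hlf. Its level with and without Hlf was 42.7 (35.7 to 50.7) and 4.32 (3.17 to 5.77) in the adult, a ratio of 9.89 (7.01 to 14.2), 14.3 (12.5 to 16.2) and 6.52 (5.99 to 7.08) in embryonic marrow, a ratio of 2.19 (1.87 to 2.55), and 5.59 (2.05 to 12.2) and 11.2 (9.45 to 13.2) in the endothelial sort, a ratio of 0.499 (0.180 to 1.11).

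Of 10 genes of Wnt transcription and feedback looked for, 3 were detected, Lef1, Ccnd1 and Myc, the last pair being genes of cell growth that Wnt can induce. Lef1, the partner of Nrarp in endothelium, was scarce in endothelial cells, at 1.39 (0.962 to 1.94) in the endothelial sort, 8.89 (6.16 to 12.4) in embryonic marrow and 3.22 (2.52 to 4.06) in adult marrow. It was highest in the Pecam1 cells of embryonic marrow with none of Gja4, Apln and Stab1, at 411 (391 to 432, 422 cells), and in Ptprc cells it lay in those without Hlf, at 16.8 (14.9 to 18.9) with Hlf and 117 (115 to 120) without in embryonic marrow, and at 0 of 30417 molecules with Hlf (which allows a level of up to 0.986) and 14.6 (12.4 to 17.1) without in adult marrow. Ccnd1, the gene of cyclin D1, was lowest of the 3 endothelial sets in Gja4 cells, at 108 (97.5 to 119), 86.5 (62.1 to 117) and 57.7 (52.9 to 62.8), and highest in Apln cells, at 827 (809 to 846), 631 (602 to 662) and 330 (295 to 368). Myc in Ptprc cells with and without Hlf was 1111 (1074 to 1149) and 763 (746 to 780) in the adult and 1155 (1139 to 1172) and 541 (537 to 546) in embryonic marrow.

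Across the 35 sets of at least 20 cells in the 3 libraries, the targets whose levels ran most like Notch3 were Acta2 (Spearman's rho 0.670), Rgs5 (0.643) and Rspo2 (0.607). Those most like Nrarp were Pecam1 (0.908), Fzd4 (0.879) and Fzd6 (0.862), and the correlation of Notch3 with Nrarp was -0.244. The points are sets of cells that share libraries and panel totals, and Rgs5 and Pecam1 had been used to make the sets, so these are descriptions. In the plot of both genes the Gja4, Apln and Stab1 sets lie high in Nrarp and low in Notch3. Adult Ptprc cells with Hlf lie with them, at Nrarp of 116 and Notch3 of 5.92. The adult Lepr cells lie high in Notch3 and low in Nrarp, and the osteoblast-like and chondrocyte-like sets low in both. The other Ptprc sets lie between in Nrarp.

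**Figure D5:**
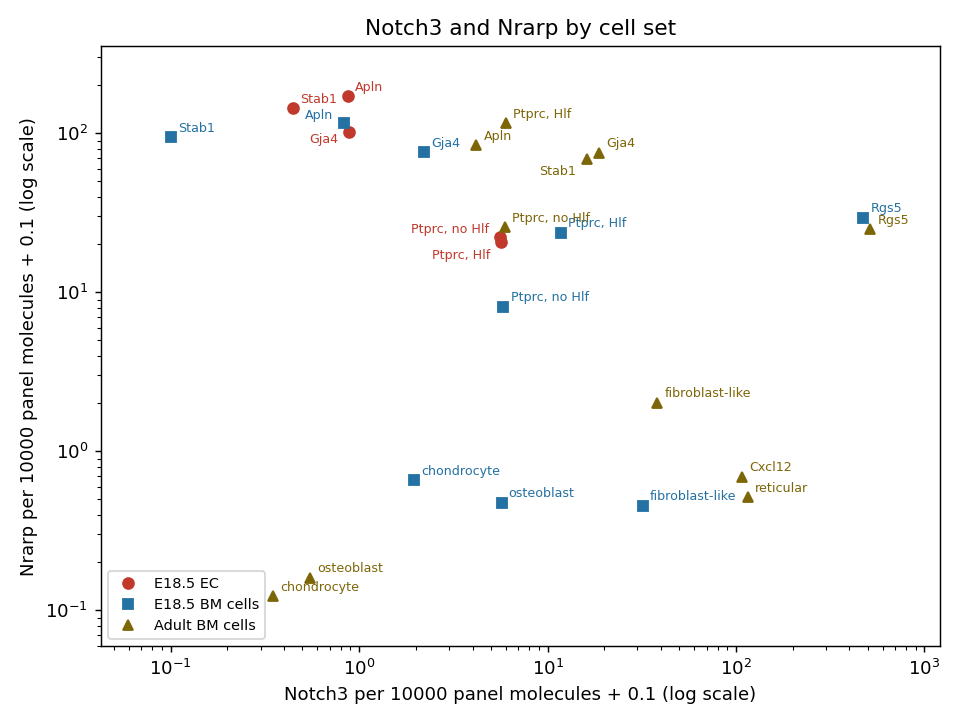
Level of Nrarp against level of Notch3 (both as molecules per 10000 panel molecules plus 0.1, log axes) for named sets of at least 20 cells, coloured by library, with Rgs5 cells shown without Prg4-rich ones. Rgs5 cells are farthest to the right of the sets drawn, with Notch3 of 475 and 516 and Nrarp of 29.3 and 24.8, above the Lepr and Cxcl12 cells, which have Notch3 of 115 and 108 and Nrarp of 0.416 and 0.593. Not drawn are the 235 adult cells past the Rgs5 and another gate, with Notch3 of 330.0 and Nrarp of 45.6, and the Pecam1 cells with none or a tie of the 3 markers.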

How the data were processed

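Per the file headers, the deposited counts are unique molecules (molecular identifiers) per cell and amplicon from the BD Rhapsody Targeted Analysis Pipeline 1.8, raw and after recursive (RSEC) and distribution-based (DBEC) error correction, the labels naming the build mm10. The authors processed each library on its own, with several animals pooled in it. DBEC counts were summed per gene and cell. Cells with under 20 molecules or under 5 targets were left out (5, 40 and 9 cells), and no doublet caller was run. Totals of 432987, 1837897 and 6304495 molecules stood behind the libraries.

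Sets of cells were made by marker gates of at least 2 molecules and 1% of the molecules of a cell. A level is molecules of a gene per 10000 panel molecules of a set, with an exact Poisson 95% interval. Shares have Clopper-Pearson intervals and ratios exact conditional binomial ones. A count of 0 is given the limit of 3 counts. All intervals cover counting error only, and with 1 library per group no test between samples was run. Shares were also taken after thinning each cell to 50 molecules. A target entered the count of targets past a 2-fold ratio with at least 10 molecules. Clusters (Leiden, resolution 0.5) were made without Notch3, Nrarp, Hey1 and the cell cycle targets Mki67, Top2a, Cdk1 and Ccne1. Scripts used python 3.11.15, numpy 2.4.6, pandas 2.3.3, scipy 1.17.1, scikit-learn 1.9.0, igraph 0.11.9 and matplotlib 3.10.9, and were tested on simulated data. Gene positions came from GENCODE on GRCm38.

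The members, lists and comparisons were chosen with earlier results of these data known. Genes named were the members, the gate markers, the genes of a Notch list of 20 and a Wnt list of 10 that were detected, the 3 targets most like each member and markers of the cell types. Mecom and the split by Acta2, Tagln or Prg4 were chosen after their values were seen. Alternatives were other error corrections, scalings, filters, gates, clusters, thinning and stricter cell sets.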

Additional observations from a re-analysis of the deposited data

Results flagged for a closer look

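The ratio of Nrarp in Gja4 to Stab1 endothelial cells lay on different sides of 1 in the libraries, at 0.706 in the endothelial sort, 0.807 in embryonic marrow and 1.10 in adult marrow. The difference between the libraries was not tested, since each is 1 library, and counted per cell the endothelial sort stood at 1.16.

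The ratio of Nrarp in Ptprc cells with Hlf to those without was 2.95 in embryonic marrow and 4.51 in adult marrow, but 0.924 in the endothelial sort, where 44 cells had Hlf. This difference was not tested either.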

How the results depend on the processing

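Over 19 results and 215 alternative values, 165 stayed on the same side of 1 and within 1.5 times, 35 moved by more, 10 newly had an interval apart from 1, 0 lost it and 5 changed direction, and 7 results held under each alternative run. The causes were not tested. No paired analysis was possible because each group is 1 library. Stricter cell sets (Prg4, Acta2 or Tagln, cells past other gates, stromal or endothelial targets, Cxcl12) were chosen after seeing the data, and the embryonic endothelial Notch3 values rest on 14 and 3 molecules.

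For Notch3 in Rgs5 against endothelial cells, the endothelial sort gave 2103, and 277 with RSEC counts, 620.0 with raw counts, 5447 per cell, 234 with clusters, 513 as thinned share, 1029 with the cells past other gates and 3860.4 without endothelial cells that held stromal targets. Embryonic marrow gave 605, and in the same order 68.3, 131 and 2063, then 1016 without the deepest 5% of cells and 236 as thinned share. Clusters gave no value there, since the Rgs5 set was the most frequent gated set of no cluster. A cluster led by Col10a1, Mmp13 and Col2a1 held 50.8% of the Notch3 molecules of that library. Adult marrow gave 10.4, and 5.25 with RSEC, 5.79 with raw counts, 58.4 per cell, 4.63 with a gate of 1 molecule, 6.16 with clusters, 19.1 as thinned share, 31.0 without Prg4-rich cells, 27.0 for Rgs5 cells with Acta2 or Tagln and 69.2 without stromal targets. For Notch3 in Rgs5 against fibroblast-like cells of embryonic marrow (14.9), scaling without the 5 most abundant targets and the gate markers gave 9.81 and thinning 6.27. Against adult Lepr cells (1.51), the value was 3.28 per cell, 4.48 without Prg4-rich cells and 3.90 with Acta2 or Tagln, and it changed direction to 0.755 with that scaling, 0.542 with a gate of 1 molecule and 0.870 with clusters. Between embryonic and adult Rgs5 cells (2.74), it was 1.16 per cell, 7.01 with a gate of 1 molecule, 1.45 as thinned share, 1.09 with Acta2 or Tagln and, in the other direction, 0.920 without Prg4-rich cells.

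For Nrarp in Gja4 against Stab1 cells, the endothelial sort (0.706) changed direction to 1.16 per cell, and adult marrow (1.10) had intervals above 1 at 1.11 with RSEC, 1.12 with raw counts, 1.56 per cell and 1.44 with clusters. For Apln against Stab1 cells, embryonic marrow (1.24) had intervals above 1 at 1.39 with RSEC, 1.32 with raw counts, 1.63 per cell, 1.38 with a gate of 1 molecule and 1.36 without the deepest cells, and adult marrow (1.22) at 1.28 with the other scaling. Nrarp in endothelial against Ptprc cells of the endothelial sort (6.69) was 3.24 with RSEC, 4.43 with raw counts and 4.11 per cell. Endothelial Nrarp in the endothelial sort against adult marrow (2.04) was 1.21 per cell and 3.34 with the other scaling.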

Other observations

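Clusters made without Notch3, Nrarp, Hey1 and the cell cycle targets held the members in places that the marker sets did not show. In adult marrow a cluster of 506 cells led by Mmp13, Mmp9 and Spp1 had a Notch3 level of 67.0 (64.1 to 70.0), with a molecule in 73.9% of cells, and an Nrarp level of 0.580 (0.338 to 0.928). The cluster of 311 cells led by Acta2, Rgs5 and Tagln had Nrarp at 37.7 (34.8 to 40.8), with a molecule in 63.7% of cells. In embryonic marrow a cluster of 260 cells led by Col10a1, Mmp13 and Col2a1 had Notch3 at 107 (103 to 111). It held 2244 Notch3 molecules, and its most frequent gated cells were 93 chondrocyte-like ones. The whole chondrocyte-like set of that library held 20 Notch3 molecules, so most of those in the cluster lay in other cells.

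In the endothelial sort a cluster of 127 cells led by Fzd9, Hlf and Myc, mostly Ptprc cells, had Notch3 at 35.2 (26.5 to 45.8) and Nrarp at 17.3 (11.4 to 25.1). The cluster of embryonic marrow led by the same genes, with 3427 cells, had Notch3 at 12.3 (11.1 to 13.5) and Nrarp at 22.0 (20.5 to 23.6). Clusters led by the osteoclast genes Acp5 and Ctsk in the endothelial sort (305 cells) and Atp6v0d2 and Ctsk in embryonic marrow (903 cells) were low in both, with Notch3 at 0.908 and 0.828 and Nrarp at 5.99 and 0.720. In adult marrow a cluster of 1354 cells led by Ccne1, Top2a and Myc had Nrarp at 58.2 (54.3 to 62.3). Ccne1 and Top2a led it by fold but had not been used to form it.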
